A study of Mus musculus with 16 samples.

Results

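The comparison described here is the late step of an uptake time course, macrophages after 180 min with apoptotic cells set against macrophages after 90 min. Its members are the libraries that the labels assign to those times, 4 at each, so 8 of the 16 libraries of the series, and all genes of the deposited count table were examined. The macrophages were of the mouse Hoxb8 line, in which forced Hoxb8 keeps bone marrow progenitors growing until its withdrawal lets them become macrophages. Both groups carried the same background and the same agent, apoptotic Jurkat cells of a human T cell leukaemia line, and by their labels differed only in time. The remaining libraries were 4 of macrophages alone and 4 of macrophages with apoptotic cells for 45 min, and they served to estimate the spread and to place each late change on the whole course. Whether the 4 libraries of a time are independent cultures is not stated in the labels, and the p-values therefore cover the spread among these libraries, technical or not. The labels also give no macrophages kept alone for each time, so time in culture and time with apoptotic cells cannot be told apart.

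Uptake of dying cells, called efferocytosis, starts when receptors on the macrophage bind phosphatidylserine or bridging molecules on the dying cell, and it ends with digestion of the corpse and export or reuse of its lipids, amino acids and nucleotides. Macrophages in this process are known for a fast wave of immediate early genes and, later, for production of transforming growth factor beta (TGF-beta), for damped inflammatory and interferon programmes and for antioxidant defence. Type I interferon acts through a complex of transcription factors, STAT2 and IRF9 among them, that binds the interferon-stimulated response element, a DNA motif in front of many antiviral genes.

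Levels are given as CPM, the counts of a gene per 1000000 counts of a library whose size carries edgeR's TMM factor. Differences are log2 fold changes of 180 min over 90 min with their standard error (SE). A gene was called, and is said to have risen or fallen, at an adjusted p under 0.05 by edgeR's quasi-likelihood test with Benjamini-Hochberg adjustment over all 14168 genes tested. Library totals ran from 13.6 to 17.4 M counts at 90 min and from 10.7 to 23.4 M at 180 min, and the biological coefficient of variation was 7.81%. On the first principal component of all 16 libraries (21.3% of variance), 1 library of 180 min (library 1, at 20.6) lay next to the 90 min libraries (7.80 to 20.4) and apart from the other 3 of its group (27.9 to 38.4). On the second (10.3%) library 1, at -0.82, lay between the 90 min libraries (-37.5 to -5.56) and the other 3 (5.09 to 23.6). Macrophage markers summed to 10500 to 10800 CPM at 90 min and 9720 to 11000 CPM at 180 min, and 2 of 10 fell, the mannose receptor Mrc1 (-0.21, SE 0.07, lost in 12 of 18 alternatives, highest adjusted p = 0.296) and the Fc receptor Fcgr1 (-0.15, SE 0.039, lost without library 3 of 90 min or without library 2 or 3 of 180 min, highest adjusted p = 0.0978), with 0 lower without library 2 or 3 of 180 min or library 3 of 90 min. Of 10 T or Jurkat cell markers 6 had no count in the 8 libraries and none was tested, and all 6 erythroid or mast cell markers were at 0. Of B cell markers Cd79b and Ms4a1 (0.35 and -0.53) and of neutrophil markers S100a8 (-0.02) were tested and not called. Human transcripts close in sequence to mouse ones may have added counts, and their part in the results was not tested. In bulk samples such as these, fewer cells of a type and less RNA per cell cannot be told apart.

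Between 90 and 180 min 631 genes rose, 4.45% of those tested, and 987 fell, 6.97%. These shares are the background for each list count given below, and a count near them is not a result about its list. At least 2-fold changes were few, with 47 genes higher (0.332%) and 51 lower (0.36%), so most called genes moved by less than that. The median log2 fold change over all genes was -0.002. Among coding genes 605 rose and 906 fell of 11436, and among noncoding genes 24 rose and 80 fell of 2648. For 747 genes (5.27%) all libraries of 180 min lay above all of 90 min and for 991 (6.99%) below, together 1738 genes (12.3%), and this held for 1255 of the 1618 called genes (77.6%). Without library 1 of 180 min, the one that lay near the 90 min libraries on the first component, 626 genes were higher and 855 lower. With total counts and no scaling factor the split was 840 higher and 791 lower, with a median over all genes of 0.03, so there was no excess of falls without the factor. Of 246 genes that the naming rule picked and that were called, 185 kept the call in every one of 18 alternatives and 61 lost it in at least 1, 60 of them with a library left out and 4 by DESeq2. Where a named call was lost, the parentheses give the library or the number of alternatives, with the highest adjusted p among them (edgeR or DESeq2).

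**Figure D1:**
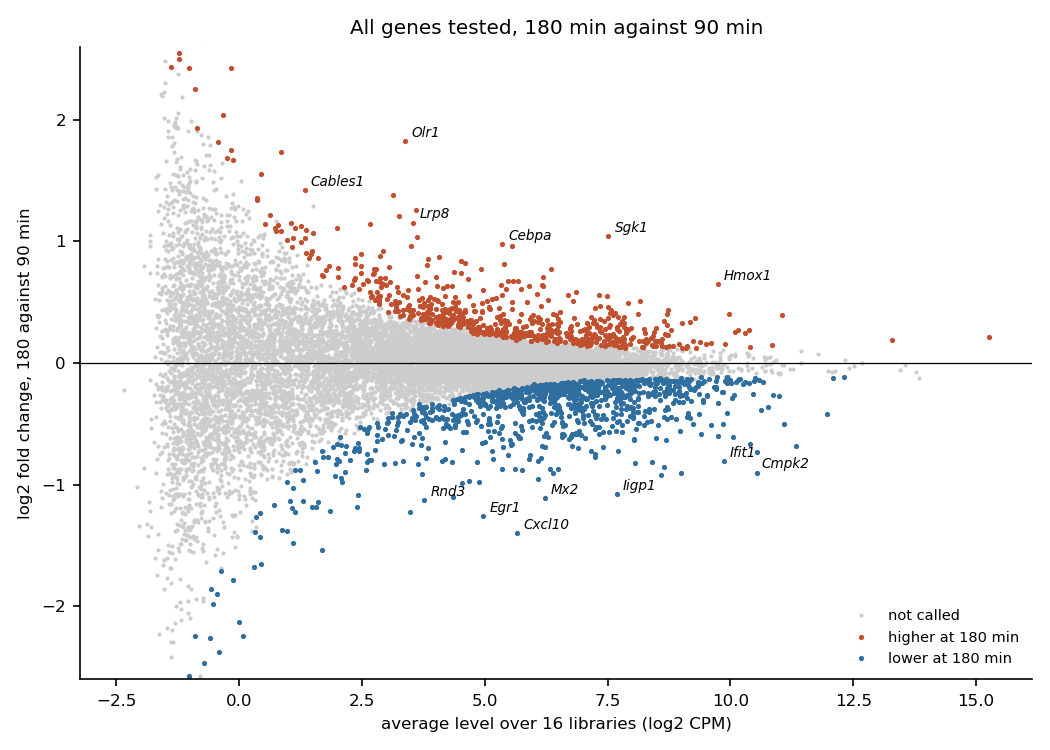
Log2 fold change of 180 against 90 min (vertical axis) against the average level of each gene over 16 libraries in log2 CPM (horizontal axis). Grey points are genes not called, orange points genes that rose (631 in all) and blue points genes that fell (987 in all). Beyond the vertical range of 2.6, 24 genes are not drawn, of which 17 were called. Olr1 stands at the top among the labelled genes, and Cxcl10, Egr1 and Mx2 stand at the bottom.

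Among called coding genes that averaged at least 1 log2 CPM and whose groups did not overlap, the largest rise was that of Olr1, which encodes the scavenger receptor LOX-1 for oxidised lipoproteins and dying cells. Its level was 6.13, 8.61, 8.63 and 9.64 CPM at 90 min and 34.2, 33.5, 22.7 and 27.6 CPM at 180 min. The highest library of 90 min lay below the lowest of 180 min, and the rise was log2 fold change 1.82, SE 0.14, adjusted p = 4.57e-16. Spsb1, an adaptor of a ubiquitin ligase that targets the nitric oxide synthase of macrophages, was at 7.08, 8.96, 7.99 and 8.65 CPM at 90 min and 25.4, 19.9, 21.7 and 18.6 CPM at 180 min, without overlap (log2 fold change 1.38, SE 0.15, adjusted p = 3.75e-11). Klf2, a transcription factor that restrains inflammatory activation of myeloid cells, was at 6.35, 6.52, 7.71 and 5.98 CPM at 90 min and 16.6, 19.3, 14.8 and 13.4 CPM at 180 min. All 4 late libraries stood above all 4 earlier ones (log2 fold change 1.26, SE 0.14, adjusted p = 7.32e-11). Nuak1, a kinase related to AMP-activated kinase, rose by 1.21 (SE 0.15) from 5.02 ± 0.783 to 11.5 ± 1.32 CPM (SD, n = 4 each). Against macrophages alone, Olr1 stood at -0.17, 1.20 and 3.02 at 45, 90 and 180 min, and Klf2 stood at 0.10, -0.89 and 0.37 and Nuak1 at 0.08, -1.0 and 0.21. These 3 contrasts share the libraries of macrophages alone.

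Sgk1, a kinase downstream of PI3-kinase that controls ion and nutrient transporters, was the most abundant of the 15 largest rises, at 168, 158, 161 and 158 CPM at 90 min and 341, 339, 318 and 328 CPM at 180 min. The groups lay far apart (log2 fold change 1.04, SE 0.049, adjusted p = 2.09e-25), a 2.06-fold difference. Lrp8, the receptor for apolipoprotein E and reelin, rose by 1.16 (SE 0.12) from 10.2 ± 1.18 to 22.9 ± 1.62 CPM. Pdgfa, a subunit of platelet-derived growth factor, rose by 1.15 (SE 0.32). Rims3, a member of a family of synaptic exocytosis proteins, rose by 1.14 (SE 0.18), and Cables1, an adaptor of cyclin-dependent kinases, by 1.43 (SE 0.29). Smpd5, a sphingomyelinase, rose by 1.10, and Efnb1, a membrane-bound ligand of Eph receptors, by 1.07. Cd24a, a surface glycoprotein, rose by 1.13 (SE 0.29) and Mcrip2, which is poorly described, by 1.03 (SE 0.32), both at levels under 5 CPM in each of the 8 libraries. The call of Cd24a was lost after thinning every library to the lowest total (0.86, adjusted p = 0.0706), within a range of 0.00239 to 0.0706 in adjusted p over the alternatives (edgeR or DESeq2). The call of Mcrip2 was lost with only the 8 libraries of 90 and 180 min fitted (1.04, adjusted p = 0.064), without library 2 of 180 min (0.96, adjusted p = 0.059) or without library 3 of 90 min (0.77, adjusted p = 0.121), within a range of 0.00818 to 0.121 in adjusted p over the alternatives (edgeR or DESeq2). Smad6 and Pmepa1 complete the 15 and are described with the TGF-beta genes. For all 15 the libraries of 180 min lay above those of 90 min, which was part of the rule for naming them.

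Cxcl10, an interferon-induced chemokine for T cells, had the largest fall by the same rule. It was at 59.1, 52.5, 56.8 and 57.3 CPM at 90 min and 23.9, 20.2, 18.4 and 23.2 CPM at 180 min. The lowest library of 90 min was above the highest of 180 min, and the difference was log2 fold change -1.40, SE 0.077, adjusted p = 3.42e-22, with the level 2.63-fold lower at 180 min. Egr1, an early growth response transcription factor, was at 20.5, 30.3, 25.6 and 27.8 CPM at 90 min and 10.9, 9, 10.3 and 12.8 CPM at 180 min (log2 fold change -1.26, SE 0.11, adjusted p = 3.29e-14), again without overlap. Its relative Egr3 fell by 1.14 (SE 0.28) from 4.92 ± 0.732 to 2.29 ± 0.585 CPM. Rnd3, a small GTP-binding protein that opposes contraction of actin, fell by 1.13 (SE 0.13), from 14.7 ± 1.42 to 6.69 ± 0.963 CPM. Iigp1, an interferon-inducible GTPase that attacks pathogen vacuoles, was at 216, 204, 228 and 220.2 CPM at 90 min and 97.6, 106, 99.8 and 108 CPM at 180 min. It fell in all 4 libraries to under the lowest earlier value (log2 fold change -1.08, SE 0.049, adjusted p = 6.83e-26). Psme2b, a copy of the proteasome activator gene Psme2 that can share reads with it, fell by 1.10 (SE 0.11). Ppm1k, a mitochondrial phosphatase of branched-chain amino acid breakdown, fell by 0.97 (SE 0.095), Pou3f1, a POU-domain transcription factor, by 0.95 (SE 0.067) and Igsf9, an immunoglobulin-superfamily protein, by 0.91 (SE 0.059). Tnfsf9, a costimulatory ligand of the TNF family, fell by 0.98 (SE 0.22) at a level of 4.14 ± 0.272 CPM at 90 min. Dand5, a secreted antagonist of Nodal and BMP ligands, fell by 1.19, Rwdd3, an enhancer of sumoylation, by 1.14 and Edn1, the vasoconstrictor endothelin, by 0.94, all under 6 CPM. The call of Dand5 was lost without library 3 of 90 min (-0.88, adjusted p = 0.116), within a range of 0.0044 to 0.116 in adjusted p over the alternatives (edgeR or DESeq2). The call of Rwdd3 was lost without library 2 of 180 min (-0.96, adjusted p = 0.0535) or without library 3 of 180 min (-1.02, adjusted p = 0.0512), within a range of 0.00384 to 0.0535 in adjusted p over the alternatives (edgeR or DESeq2). The call of Edn1 was lost without library 3 of 90 min (-0.67, adjusted p = 0.0871), within a range of 0.00212 to 0.0871 in adjusted p over the alternatives (edgeR or DESeq2). The histone gene Hist2h3c2 and the interferon-induced Ifit3b complete the 15, and both can share reads with near-identical copies.

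**Figure D2:**
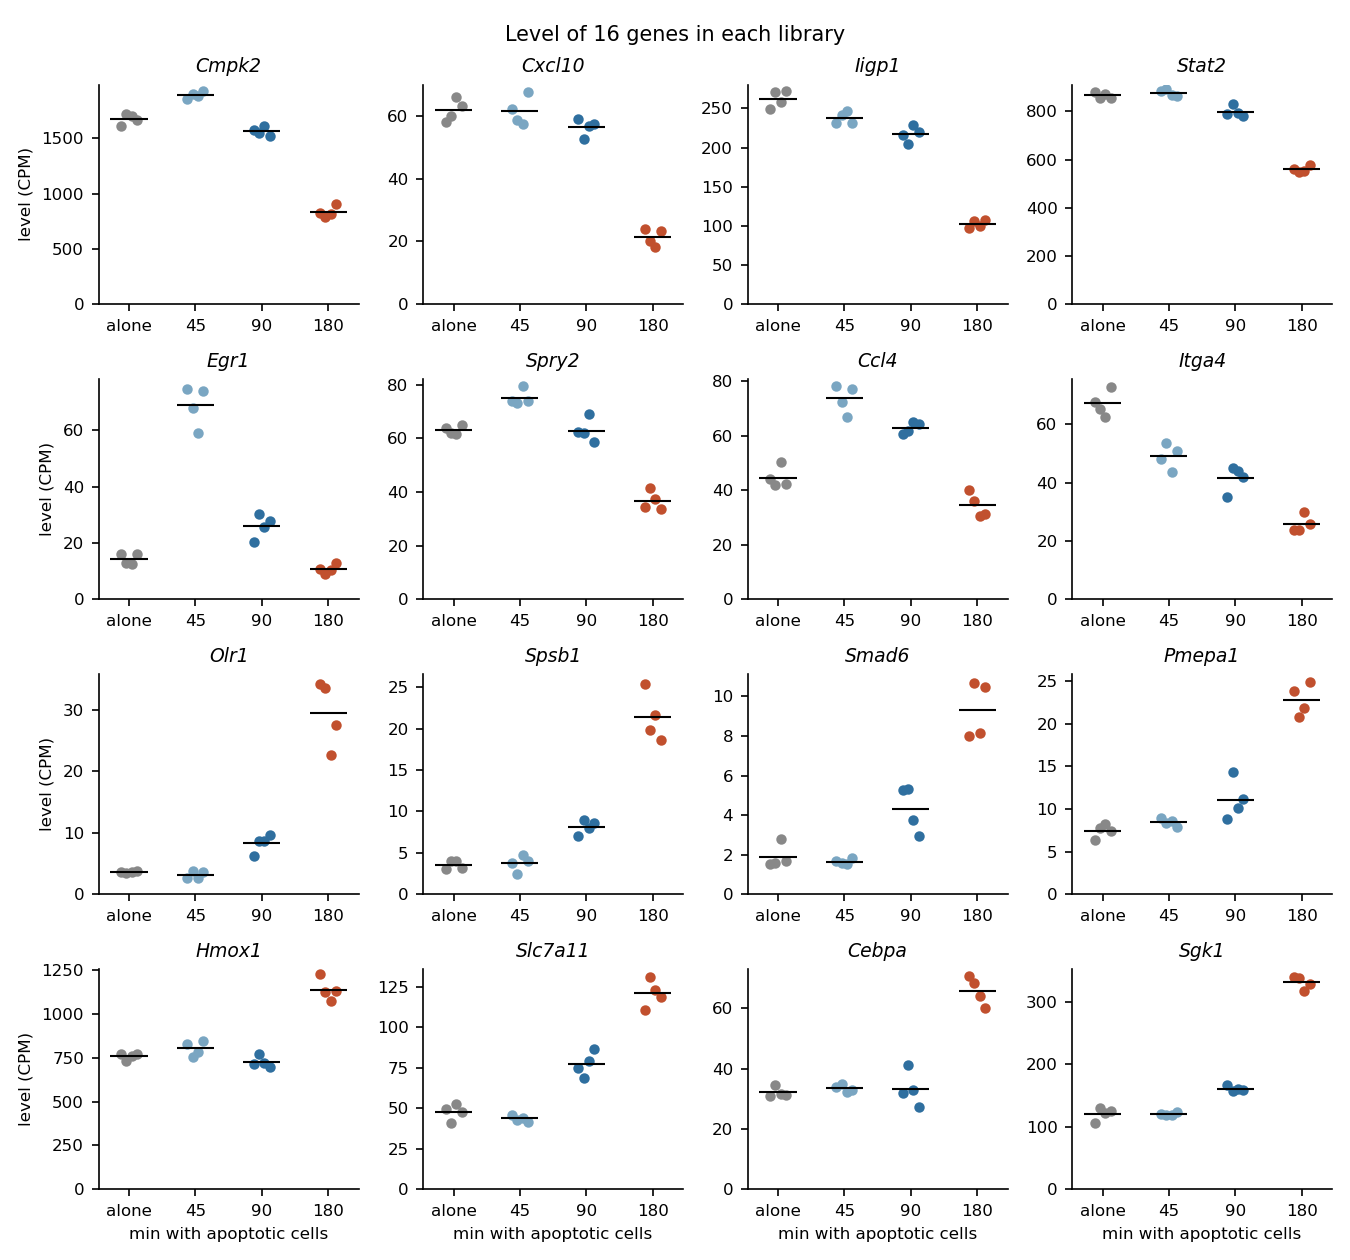
Level in CPM (vertical axes, from 0) of 16 genes in each library, by time with apoptotic cells (horizontal axes). Points are libraries, 4 per group, and horizontal lines are group means. In the upper 2 rows the libraries of 180 min lie below those of 90 min, and in the lower 2 rows they lie above them.

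Interferon-stimulated genes fell nearly throughout the list, whose median was the lowest of the 51 lists with at least 9 tested members. Of 36 interferon response genes tested 33 fell and 1 rose, against 6.97% and 4.45% of all genes, with a median of -0.41 against -0.002 over all genes. For 32 of them the groups did not overlap in the lower direction. The most significant was Cmpk2, a mitochondrial nucleotide kinase induced by interferon. It was at 1575, 1546, 1609 and 1522 CPM at 90 min and 827, 792, 818 and 909 CPM at 180 min, with every late library far below every earlier one (log2 fold change -0.90, SE 0.038, adjusted p = 2.76e-27). Ifit1, which binds foreign RNA that lacks a proper cap, was at 995, 988, 1032 and 1014 CPM at 90 min and 587, 559, 569 and 585 CPM at 180 min. Its values within each time were tight and the times did not overlap (log2 fold change -0.81, SE 0.037, adjusted p = 9.39e-26). Mx1, a dynamin-like antiviral GTPase, was at 429.8, 402, 410.3 and 414 CPM at 90 min and 233, 228, 227 and 227 CPM at 180 min (log2 fold change -0.86, SE 0.043, adjusted p = 6.77e-24), with the same separation.

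By role, all 13 antiviral effectors fell, with log2 fold changes from -1.11 to -0.20 and a median of -0.61. They included Rsad2, the antiviral enzyme viperin and the most abundant of them, which went from 2822 ± 101 to 1758 ± 91.2 CPM (SD, n = 4 each; -0.68, SE 0.036). Ifit2, an RNA-binding relative of Ifit1, fell by 0.73 (SE 0.038), and Mx2, which the annotation classes as a polymorphic pseudogene, fell by 1.11 (SE 0.062). All 6 sensors of foreign nucleic acid fell, by 0.24 to 0.42 on the log2 scale, and so did both genes of the ISG15 system, the ubiquitin-like protein Isg15 (-0.44, SE 0.046) and its protease Usp18. All 3 guanylate-binding proteins fell, from -0.45 to -0.32. Of 6 transcription factors 4 fell and 1 rose. Stat2, a subunit of the interferon complex, was at 788, 832, 794 and 780.5 CPM at 90 min and 562, 550.3, 554 and 579.5 CPM at 180 min (log2 fold change -0.51, SE 0.038, adjusted p = 1.05e-16), without overlap. Irf9, the DNA-binding member of the same complex, stood at -0.08 (SE 0.047, adjusted p = 0.297) and was not called. Irf7, an amplifier of the interferon response, was among the falls (-0.13, SE 0.04, lost in 8 of 18 alternatives, highest adjusted p = 0.183). Irf8, a factor of the monocyte lineage, was the riser of the list at 0.22 (SE 0.051). The receptor transporter Rtp4 was the other member not called (-0.08, adjusted p = 0.342).

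The 250 bases before the start of these genes were read on either strand for GAAA followed, after any 2 bases, by a further GAAA, the core of the interferon-stimulated response element. RefSeq promoters of build GRCm38.p6 held them in 2.98% of all 32851 windows, in 40.6% of the 32 windows of the interferon list, in 9.72% of the 957 windows of coding genes that fell, in 2.45% of the 695 of those that rose and in 2.32% of the 9922 of those not called. The promoters of 4 of the named falls and, for contrast, 1 named rise that also holds the letters are printed here with the match in capitals, each on the strand of its gene. The windows are Cxcl10 (minus strand, chr5:92348890-92349139), Ifit1 (plus strand, chr19:34640639-34640888), Ifit3b (plus strand, chr19:34607707-34607956), Stat2 (plus strand, chr10:128270248-128270497) and Sgk1 (plus strand, chr10:21881934-21882183).
Cxcl10: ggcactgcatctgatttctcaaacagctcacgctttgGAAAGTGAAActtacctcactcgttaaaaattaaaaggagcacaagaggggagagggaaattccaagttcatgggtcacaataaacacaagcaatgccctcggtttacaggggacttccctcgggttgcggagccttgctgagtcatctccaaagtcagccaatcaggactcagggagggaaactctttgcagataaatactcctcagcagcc
Ifit1: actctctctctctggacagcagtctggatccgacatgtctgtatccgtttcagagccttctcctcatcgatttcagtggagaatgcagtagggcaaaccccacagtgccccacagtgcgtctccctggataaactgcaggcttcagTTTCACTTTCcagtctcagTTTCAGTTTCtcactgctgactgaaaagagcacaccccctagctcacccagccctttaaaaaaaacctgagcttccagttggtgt
Ifit3b: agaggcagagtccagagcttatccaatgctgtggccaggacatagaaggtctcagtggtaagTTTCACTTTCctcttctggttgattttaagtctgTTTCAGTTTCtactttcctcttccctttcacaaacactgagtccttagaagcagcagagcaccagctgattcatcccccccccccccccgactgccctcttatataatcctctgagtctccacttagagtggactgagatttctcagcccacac
Stat2: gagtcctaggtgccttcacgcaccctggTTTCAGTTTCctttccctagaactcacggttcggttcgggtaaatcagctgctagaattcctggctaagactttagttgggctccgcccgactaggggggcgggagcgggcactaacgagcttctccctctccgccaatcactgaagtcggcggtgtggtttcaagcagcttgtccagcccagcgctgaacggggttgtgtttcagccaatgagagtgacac
Sgk1: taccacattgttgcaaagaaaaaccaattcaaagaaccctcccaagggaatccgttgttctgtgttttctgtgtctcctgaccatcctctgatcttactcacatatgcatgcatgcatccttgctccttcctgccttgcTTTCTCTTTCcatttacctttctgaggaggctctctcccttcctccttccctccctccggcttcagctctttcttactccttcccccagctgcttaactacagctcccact
A match is a description of the letters and not a site or a cause. Ifit1 and Ifit3b each held 2 matches and the others 1, and Sgk1, with 1 match, rose. Among coding genes with a window, 87 of 322 that held the letters fell (27%) and 15 rose (4.66%), while 626 of 8756 without them fell (7.15%) and 487 rose (5.56%). Within the interferon list the fall was alike with and without the letters. The 13 genes that held them had a median of -0.405, and the 13 without, Cmpk2 among them, had a median of -0.358. Outside the interferon list 74 of 309 with the letters fell (23.9%), against 615 of 8743 without (7.03%). Genes outside the list still include interferon-induced ones that hold the letters, such as Cxcl10 and Ifit3b. Ifit3b (543 ± 19.5 to 290.0 ± 13.1 CPM, -0.91, SE 0.042) and Ifit3 can share reads. Other motifs were searched in the same windows. Letters of the NF-kB motif stood in 41.7% of the 12 windows of the inflammatory list, against 1.41% of all windows. Those of the antioxidant response element stood in 21.4% of the 28 windows of NRF2 targets, against 10.2%. Those of the cyclic AMP response element stood in 2.63% of the 38 windows of the cyclic AMP list, against 1.55%.

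Genes of antigen presentation shared this direction. Over all genes, for the lists of this paragraph, 6.97% fell and 4.45% rose. Of 18 genes of MHC presentation and the immunoproteasome tested 10 fell and 0 rose, with a median of -0.14, and by DESeq2 or at an unadjusted p under 0.05 0 rose too. Nlrc5, the transactivator of MHC class I genes, was at 339.8, 339, 319 and 336 CPM at 90 min and 223, 251, 264 and 247 CPM at 180 min. The groups did not overlap and the fall was 0.44 on the log2 scale (SE 0.049, adjusted p = 1.71e-10). Psmb8, a catalytic subunit of the immunoproteasome, fell by 0.28 (SE 0.046), Tap2, of the peptide transporter, by 0.25 (SE 0.048) and Tapbp, which loads peptide onto MHC class I, by 0.20 (SE 0.04). Of 30 constitutive proteasome genes 0 were called by edgeR or DESeq2 and 1 was higher at an unadjusted p under 0.05, with a median of 0.01, and those of smallest p were Psmd3 (0.13, SE 0.055) and Psmd12 (0.11, SE 0.058). Of 25 Toll-like receptors, other sensors and adaptors 10 fell and 4 rose, with a median of -0.10. The endosomal receptors Tlr3 and Tlr8 fell by 0.58 (SE 0.057) and 0.37 (SE 0.046), and the cytosolic sensors Nlrp3 and Nod1 by 0.43 each (SE 0.047 and 0.061). Tlr2, a cell surface receptor for bacterial lipoproteins, went the other way (58.9 ± 2.93 to 83.2 ± 5.12 CPM, 0.50, SE 0.07), as did the signalling ligase Traf6 (0.38, SE 0.063) and the receptor-associated kinases Irak2 (0.17, SE 0.048, lost without library 4 of 90 min, highest adjusted p = 0.0583) and Irak1 (0.16, SE 0.056, lost in 7 of 18 alternatives, highest adjusted p = 0.139).

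Inflammatory cytokine and chemokine genes fell in 9 cases and rose in 3 of 20, with a median of -0.24. For the lists of this paragraph the shares over all genes were 6.97% lower and 4.45% higher. Ccl4, a chemokine for monocytes and T cells, was at 60.5, 61.9, 65.1 and 64.1 CPM at 90 min and 39.9, 36, 30.6 and 31.2 CPM at 180 min. All late libraries were below all earlier ones (log2 fold change -0.88, SE 0.075, adjusted p = 1.76e-14). Its neighbour Ccl3 fell by 0.49 (SE 0.065) and Ptgs2, the inducible cyclooxygenase, by 0.81 (SE 0.095). The risers were the cytokine Osm (16.1 ± 2.56 to 27.1 ± 1.59 CPM, 0.74, SE 0.099), Tnf (0.23, SE 0.051) and the chemokine and scavenger receptor Cxcl16 (0.16, SE 0.046). Il10, the anti-inflammatory cytokine, stood at -0.34 (SE 0.37, adjusted p = 0.665) with overlapping groups under 3 CPM. Il1b, an inflammatory interleukin, was also called lower (-0.44, SE 0.13, lost without library 2 of 90 min, without library 3 or 4 of 180 min or by DESeq2, highest adjusted p = 0.179). NF-kB subunits and their feedback genes moved both ways, 6 up and 4 down of 19 with a median of 0.05. The atypical inhibitor Nfkbiz fell by 0.70 (SE 0.057), the subunit Rel by 0.34 (SE 0.058) and the adaptor Traf1 by 0.37 (SE 0.082), and the other fall was Tnip3 (-0.23, SE 0.062, lost without library 4 of 90 min, highest adjusted p = 0.0704). The adhesion molecule Icam1 rose by 0.41 (SE 0.068), the subunit Nfkb2 by 0.33 (SE 0.066), the ribonuclease Zc3h12a, which degrades cytokine messages, by 0.35 (SE 0.049) and the coactivator Bcl3 by 0.35 (SE 0.094). Of surface molecules of costimulation and activation 3 rose and 3 fell of 23 (median -0.06), and Itga4, the integrin chain of VLA-4, fell by 0.68 (SE 0.082) from 41.4 ± 4.48 to 25.8 ± 2.78 CPM. The other falls there were Tnfsf9 and the integrin chain Itgb7 (-0.25, SE 0.083, lost in 9 of 18 alternatives, highest adjusted p = 0.221). Beside Icam1 the rises were the hyaluronan receptor Cd44 (0.14, SE 0.042, lost without library 4 of 180 min, highest adjusted p = 0.0505), also an EGR target in its list, and the costimulatory ligand Icosl (0.58, SE 0.16, lost without library 3 of 90 min, highest adjusted p = 0.0744). The rises numbered 5 without library 2 of 180 min and by DESeq2.

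Immediate early genes, whose induction needs no newly made protein, moved both ways. Of 40 tested 14 fell and 8 rose, against 6.97% and 4.45% of all genes. Their median lay at -0.01, with a sign that changed between alternatives. Egr1 and Egr3 fell as described, and Egr2 fell by 0.75 (SE 0.19) from 9.36 ± 1.42 to 5.42 ± 1.99 CPM. In the list of EGR factors, co-repressors and targets 3 fell and 3 rose of 12 (median 0.09). The 3 falls were the EGR factors named here, and the rises included the targets Id2, an inhibitor of helix-loop-helix factors (0.28, SE 0.044), and Pdgfb, a platelet-derived growth factor subunit (0.56, SE 0.13). Fos, a subunit of AP-1, was at 95.6, 90.3, 84.5 and 85.7 CPM at 90 min and 128, 120.5, 124 and 120.1 CPM at 180 min. It rose without overlap (log2 fold change 0.47, SE 0.053, adjusted p = 3.06e-10), and Junb, its partner, rose by 0.30 (SE 0.048). Plk2, a kinase of the polo family, fell by 0.51 (SE 0.042). Nr4a1, an orphan nuclear receptor, and Btg2, an antiproliferative regulator, stood at 0.16 (SE 0.19) and 0.23 (SE 0.1) and were not called (adjusted p = 0.692 and adjusted p = 0.137).

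Of 22 feedback regulators of MAP kinase signalling 9 fell and 2 rose, against 6.97% and 4.45% of all genes, with a median of -0.23. Spry2, which blocks signalling from growth factor receptors to Ras, was at 62.3, 61.9, 69 and 58.5 CPM at 90 min and 34.5, 41.3, 37.2 and 33.6 CPM at 180 min. The groups did not overlap (log2 fold change -0.79, SE 0.067, adjusted p = 2.33e-14). Among phosphatases that switch off MAP kinases, Dusp10 fell by 0.81 (SE 0.097), Dusp16 by 0.60 (SE 0.067), Dusp6 by 0.59 (SE 0.061) and Dusp1 by 0.49 (SE 0.046). Spred1, a relative of Spry2, fell by 0.27 (SE 0.046). The 2 risers were Lrrfip1, a nucleic acid binding protein (0.28, SE 0.047), and Ier3, an early survival gene (0.25, SE 0.071). Map3k8, the kinase that links Toll-like receptors to ERK, fell by 0.63 (SE 0.072). Kruppel-like factors showed no common direction, with 3 up and 3 down of 10 (median 0.03). Klf2 rose as described and Klf16 by 0.46 (SE 0.12), while Klf7 and Klf6 fell by 0.32 (SE 0.064) and 0.23 (SE 0.037). Klf13 (0.15, SE 0.044) was the other rise and Klf3 (-0.19, SE 0.054, lost without library 3 of 90 min or without library 1 or 4 of 180 min, highest adjusted p = 0.0857) the other fall.

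Of 21 genes of the TGF-beta and BMP pathway 9 rose and 0 fell, with a median of 0.19 (0 lower by DESeq2 or at an unadjusted p under 0.05 as well). Over all genes 4.45% rose and 6.97% fell. The inhibitory SMADs block receptor signalling and are themselves switched on by it. Smad7 was at 16.2, 16.8, 16.3 and 17.9 CPM at 90 min and 32.1, 27, 32.5 and 31.3 CPM at 180 min, without overlap between the times (log2 fold change 0.88, SE 0.1, adjusted p = 5.45e-10), and Smad6 was at 5.26, 5.29, 3.75 and 2.96 CPM at 90 min and 7.97, 10.7, 8.16 and 10.5 CPM at 180 min (log2 fold change 1.11, SE 0.21, adjusted p = 8.29e-05), also without overlap. Pmepa1, a membrane protein that sequesters receptor-regulated SMADs, was at 8.84, 14.3, 10.1 and 11.2 CPM at 90 min and 23.9, 20.9, 21.8 and 24.9 CPM at 180 min. Every late library was above the highest earlier one (log2 fold change 1.04, SE 0.12, adjusted p = 1.07e-09). Smad3, which carries the TGF-beta signal to the nucleus, rose by 0.63 (SE 0.062) from 57.9 ± 2.06 to 90.0 ± 0.843 CPM, and Ski, a co-repressor of SMAD proteins, by 0.49 (SE 0.043). The receptor kinase Tgfbr1 rose by 0.22 (SE 0.053) and the co-repressor Tgif1 by 0.21 (SE 0.044). Id2 was also among the 9. Against macrophages alone Smad6 stood at -0.20, 1.19 and 2.30 and Smad7 at 0.41, 0.93 and 1.80 at 45, 90 and 180 min.

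Regulators of cytokine signalling through STATs were mixed, with 7 higher and 4 lower of 23 (median -0.07), against 4.45% and 6.97% of all genes. Spsb1 and Osm rose as described, and Socs2, a suppressor of growth hormone and cytokine signalling, rose by 2.04 (SE 0.55) at 0.519 ± 0.379 to 2.16 ± 0.61 CPM. Other rises were the kinase Pim3 (0.47, SE 0.13) and the cytokine signal suppressors Cish (0.33, SE 0.098, lost without library 3 of 180 min, highest adjusted p = 0.127) and Socs3 (0.15, SE 0.052, lost in 5 of 18 alternatives, highest adjusted p = 0.106). The falls included Stat2, the transcriptional repressor Bcl6 (-0.48, SE 0.056) and the receptor-associated kinase Jak1 (-0.15, SE 0.043, lost without library 1 of 90 min, without library 2 of 180 min, without a scaling factor or in a fit of 8 libraries, highest adjusted p = 0.17), and they numbered 7 with the length and GC trend removed. Cytokine and growth factor receptors rose in 7 cases and fell in 4 of 32 (median -0.01). Il4ra, the receptor chain shared by interleukins of alternative activation, was at 278, 295, 268 and 253 CPM at 90 min and 396, 394, 392 and 379 CPM at 180 min, without overlap (log2 fold change 0.51, SE 0.044, adjusted p = 3.13e-14). Cxcr4, the receptor for CXCL12, rose by 0.68 (SE 0.074), Il17ra by 0.52 (SE 0.059) and Tnfrsf1b, a receptor for TNF on immune cells, by 0.27 (SE 0.039). Tnfrsf1a, the widely expressed receptor for TNF, fell by 0.24 (SE 0.05), and the chemotactic receptor Fpr2 fell by 0.30 (SE 0.06). The other falls were Csf3r, the receptor for granulocyte colony-stimulating factor (-0.23, SE 0.06, lost without library 2 of 90 min, highest adjusted p = 0.056), and the chemokine receptor Ccr2 (-0.23, SE 0.073, lost in 8 of 18 alternatives, highest adjusted p = 0.178). Of 17 anti-inflammatory and growth factors 4 rose and 4 fell (median 0.11), but 2 fell without library 2 of 180 min and 1 without library 3 of 90 min. The rises were Pdgfa, Pdgfb, Il4ra and Socs3. Beside Edn1 the falls were Il1rn, the antagonist of the receptor for Il1b (-0.17, SE 0.043, lost without library 3 of 90 min, highest adjusted p = 0.0551), the macrophage growth factor Csf1 (-0.30, SE 0.081, lost without library 2 of 180 min, highest adjusted p = 0.0513) and Igf1, an insulin-like growth factor (-0.11, SE 0.038, lost in 14 of 18 alternatives, highest adjusted p = 0.291). In adenosine and cyclic AMP signalling 6 rose and 2 fell of 28 (median 0.09). Adora2b, a low-affinity adenosine receptor, was 1.6-fold higher at 180 min (0.68, SE 0.15). Rapgef3, a Rap exchange factor opened by cyclic AMP, rose by 0.88 (SE 0.16), the phosphodiesterase Pde4d by 0.77 (SE 0.16) and the prostaglandin receptor Ptger2 by 0.32 (SE 0.058). Rgs1, which shortens signalling of G proteins, fell by 0.32 (SE 0.04). The other fall was the clock gene Per1 (-0.20, SE 0.066, lost in 9 of 18 alternatives, highest adjusted p = 0.255), so that 1 fell without library 1 or 2 of 180 min or library 2, 3 or 4 of 90 min. Of 15 prostaglandin and leukotriene genes 2 rose, the receptors Ptger2 and Ptger4 (0.26, SE 0.065), and 1 fell, the synthase Ptgs2 (median 0.08).

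Targets of NRF2, the transcription factor of antioxidant defence, rose in 11 of 24 cases with 1 lower and a median of 0.17. Over all genes 4.45% rose and 6.97% fell. Hmox1, the haem-degrading enzyme, was at 716, 774, 718 and 696 CPM at 90 min and 1229, 1126, 1072 and 1130.0 CPM at 180 min. The groups did not overlap (log2 fold change 0.65, SE 0.042, adjusted p = 3.3e-19). Slc7a11, the cystine importer that feeds glutathione synthesis, was at 74.8, 68.7, 79.1 and 86.9 CPM at 90 min and 111, 131, 123 and 119 CPM at 180 min (log2 fold change 0.64, SE 0.066, adjusted p = 1.18e-11), also apart. Gclm, a subunit of the enzyme that makes the glutathione precursor, rose by 0.38 (SE 0.049) and Srxn1, which repairs peroxiredoxins, by 0.27 (SE 0.045). The single fall was Keap1, the inhibitor that marks NRF2 for degradation (-0.23, SE 0.056), and Bach1, a repressor of Hmox1 counted among the myeloid factors, fell by 0.30 (SE 0.044). Against macrophages alone Hmox1 stood at 0.08, -0.06 and 0.59 at 45, 90 and 180 min.

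Solute carriers rose in 5 cases and fell in 2 of 21 (median 0.03), where 4.45% of all genes rose and 6.97% fell. Slc7a2, a carrier of arginine and lysine, went from 11.2 ± 0.924 to 21.6 ± 1.43 CPM (0.96, SE 0.13). Slc36a1, which exports amino acids from lysosomes, rose by 0.47 (SE 0.066) and Slc43a2, a carrier of large neutral amino acids, by 0.35 (SE 0.044). Slc38a2, the sodium-coupled glutamine carrier, fell by 0.32 (SE 0.052), and the iron exporter Slc40a1 was the other fall (-0.32, SE 0.1, lost in 9 of 18 alternatives, highest adjusted p = 0.183), leaving 1 without library 1 or 2 of 90 min or library 1, 3 or 4 of 180 min. Genes of glycolysis and lactate transport rose in 4 and fell in 3 of 25 cases (median 0.04), with the monocarboxylate carrier Slc16a6 higher (0.35, SE 0.056) and the kinase Pdk1, which closes the entry of pyruvate into mitochondria, lower (-0.41, SE 0.097). The glucose carrier Slc2a1 (0.18, SE 0.053, lost without library 3 of 90 min, without library 1 of 180 min or after thinning, highest adjusted p = 0.054), the mutase Pgam1 (0.20, SE 0.064, lost without library 1 of 90 min or without library 1 or 2 of 180 min, highest adjusted p = 0.111) and the kinase Sgk1 were the other rises, and the phosphofructokinases Pfkp (-0.20, SE 0.053, lost without library 1 of 90 min or without library 2 of 180 min, highest adjusted p = 0.0636) and Pfkm (-0.40, SE 0.12, lost in 5 of 18 alternatives, highest adjusted p = 0.117) the other falls. Without library 1 of 180 min 2 rose, and without library 2 of 180 min 1 fell. Sgk1 was counted as a list member and, as a kinase that controls transporters, is not an enzyme of glycolysis. Slc16a1, another monocarboxylate carrier, stood at 0.11 (SE 0.1, adjusted p = 0.576). Hypoxia-inducible factor targets rose in 4 and fell in 2 of 19 (median 0.11), with the factor Hif1a itself at 0.21 (SE 0.05), the MYC antagonist Mxi1 higher (0.44, SE 0.078) and the collagen hydroxylase P4ha1 lower (-0.23, SE 0.047). Without library 4 of 180 min 7 rose. Of TXNIP, its arrestin-domain relatives and the MLX factors 2 rose and 4 fell of 12 (median 0.05). Arrdc4 fell by 0.44 (SE 0.075), Arrdc3 rose by 0.38 (SE 0.068) and Mxd1, an antagonist of MYC, fell by 0.57 (SE 0.049). The other falls were Txnip itself, which restrains glucose uptake (-0.17, SE 0.055, lost in 7 of 18 alternatives, highest adjusted p = 0.241), and Max, the partner of MYC (-0.21, SE 0.061, lost without library 2 or 3 of 90 min or without library 2 or 3 of 180 min, highest adjusted p = 0.148), and 2 fell without library 2 of 180 min or library 3 of 90 min. Polyamine genes changed in 2 of 18 cases (median 0.07), with the methionine adenosyltransferase Mat2a higher (0.20) and the spermine oxidase Smox lower (-0.48, SE 0.071). Odc1, the first enzyme of polyamine synthesis, stood at 0.16 and missed the threshold (adjusted p = 0.054).

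Of 33 receptors and bridging molecules for dying cells 6 rose and 2 fell (median 0.01). The shares over all genes, for this list and the next 3, were 4.45% higher and 6.97% lower. Beside Olr1, the clearance receptor Stab1 was at 508, 470.4, 419 and 444 CPM at 90 min and 603, 673, 660.4 and 551 CPM at 180 min. The groups did not overlap (log2 fold change 0.43, SE 0.051, adjusted p = 1.06e-09). S1pr1, a receptor for a sphingolipid released by dying cells, rose by 0.40 (SE 0.057) and P2ry6, a nucleotide receptor that promotes phagocytosis, by 0.37 (SE 0.058). The falls were Axl, a receptor of the TAM kinases (-0.42, SE 0.091), and Adgrb1, a phosphatidylserine receptor (-0.63, SE 0.14). Mertk, the TAM kinase most used by macrophages in efferocytosis, stood at 0.04 (SE 0.055, adjusted p = 0.713). Engulfment and actin genes fell in 6 cases and rose in 2 of 43 (median -0.03), all by at most 0.26 on the log2 scale, with the motor Myo1f lower (-0.15, SE 0.04) and the actin polymerase Vasp higher (0.19, SE 0.047). The GTPase-activating protein Arhgap12 (-0.26, SE 0.06), the actin bundler Lcp1 (-0.14, SE 0.037, lost without library 3 of 180 min, highest adjusted p = 0.0671) and the nucleator subunit Actr3 (-0.14, SE 0.04, lost without library 3 of 90 min or without library 3 of 180 min, highest adjusted p = 0.125) also fell, and the actin gene Actg1 was the other rise (0.15, SE 0.049, lost without library 1 or 4 of 90 min or without library 1 of 180 min, highest adjusted p = 0.122). The falls numbered 3 without library 3 of 90 min or of 180 min, and the rises 4 without library 3 of 90 min and 1 without library 1 of either time. Lysosome and phagosome genes rose in 3 and fell in 4 of 43 (median -0.02), with the proton pump subunit Atp6v0d2 (0.46, SE 0.12) and the protease Ctsl (0.15, SE 0.036) higher and the membrane protein Lamp2 lower (-0.16, SE 0.039). The phospholipase Pla2g15 was the other rise (0.16, SE 0.054, lost in 5 of 18 alternatives, highest adjusted p = 0.148), and the glucuronidase Gusb (-0.18, SE 0.045) and the cathepsins Ctsc (-0.16, SE 0.044, lost without library 4 of 90 min, without library 3 of 180 min or with the length and GC trend removed, highest adjusted p = 0.169) and Ctss (-0.12, SE 0.035, lost in 7 of 18 alternatives, highest adjusted p = 0.128) the other falls, of which 2 in all were left without library 3 of 180 min. Of 24 MiT/TFE and autophagy genes 3 rose and 2 fell (median 0.03). The selective autophagy receptor Sqstm1 rose by 0.26 (SE 0.038), as did Tfeb, a factor of lysosomal genes (0.31, SE 0.096, lost without library 1 or 3 of 90 min, without library 1 of 180 min or with the length and GC trend removed, highest adjusted p = 0.0997), and the mTORC1 regulator Fnip2 (0.13, SE 0.035), while the transcription factor Mitf and Rubcn, a regulator of autophagy proteins on phagosomes, fell by 0.35 (SE 0.048) and 0.30 (SE 0.067).

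Genes of cholesterol efflux and the LXR pathway rose in 5 cases and fell in 2 of 23 (median 0.10), against 4.45% and 6.97% of all genes. Ppard, a nuclear receptor for fatty acids, was at 22.9, 25.9, 22.8 and 20.9 CPM at 90 min and 43.8, 40.3, 41.5 and 38 CPM at 180 min, with no overlap between the times (log2 fold change 0.82, SE 0.092, adjusted p = 1.9e-10). The long-chain acyl-CoA synthetase Acsl1 rose by 0.38 (SE 0.046) and Rxra, the partner of LXR and PPAR receptors, by 0.35 (SE 0.08), and Mylip, which degrades the LDL receptor, by 0.25 (SE 0.048). Pparg fell by 0.36 (SE 0.076) and Ch25h, an interferon-induced hydroxylase of cholesterol, by 0.68 (SE 0.12). Abca1, the efflux pump, stood at -0.07 (SE 0.039, adjusted p = 0.321). Of 24 genes of sterol synthesis and uptake 0 were called by edgeR or DESeq2, and 1 was higher and 1 lower at an unadjusted p under 0.05 (median 0.05), Hsd17b7 (0.29, SE 0.12) and Msmo1 (-0.17, SE 0.079). Of 12 genes of fatty acid synthesis 1 rose, the synthase Fasn (0.55, SE 0.11), and 1 fell, the desaturase Scd2 (-0.17, SE 0.056, lost in 12 of 18 alternatives, highest adjusted p = 0.267), with a median of -0.03.

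Myeloid lineage factors changed in 12 of 30 cases, 6 in each direction (median 0.06), against 4.45% higher and 6.97% lower over all genes. Cebpa, a driver of the granulocyte and monocyte lineages, was at 31.9, 41.1, 32.8 and 27.1 CPM at 90 min and 70.8, 68.5, 64.2 and 60.2 CPM at 180 min. The late libraries were all above the earlier ones (log2 fold change 0.98, SE 0.081, adjusted p = 6.63e-15), and against macrophages alone Cebpa stood at 0.06, 0.05 and 1.03 at 45, 90 and 180 min. Cebpb rose by 0.28 (SE 0.049), Mef2a by 0.25 (SE 0.048) and Bhlhe41 by 0.32 (SE 0.055). Maf, which holds macrophages in a mature, non-dividing state, was at 581, 647, 635 and 613 CPM at 90 min and 474, 445, 426 and 469.5 CPM at 180 min. It fell without overlap (log2 fold change -0.45, SE 0.043, adjusted p = 1.63e-12), and Ets2, a factor of macrophage growth signalling, fell by 0.26 (SE 0.042). Of 18 circadian clock genes 2 rose and 1 fell (median 0.05), with the repressor Cry1 higher (0.63, SE 0.1), Bhlhe41 as the other rise and Per1 as the fall.

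Ribosome biogenesis and nucleolar genes rose in 8 of 48 cases with 0 lower, also by DESeq2 or at an unadjusted p under 0.05, and a median of 0.13, and 39 of 48 had a positive fold change. For this and the other lists here, the shares over all genes were 4.45% higher and 6.97% lower. Nob1, an endonuclease that completes the small ribosomal subunit, rose by 0.40 (SE 0.11), Nop56, a core protein of snoRNA particles, by 0.29 (SE 0.071) and Ubtf, a factor of RNA polymerase I, by 0.28 (SE 0.06). The nucleolar protein Rrp1b also rose (0.38, SE 0.1, lost without library 4 of 180 min, highest adjusted p = 0.0825). The count was 14 with total counts and no scaling factor and 13 with the trend of counts on exon length and base composition removed. Myc, the regulator of this programme, fell by 0.43 (SE 0.1), with 1 late library inside the earlier range. G1 cell cycle genes rose in 1 case, Cables1, and fell in 5 of 23 (median -0.01), with the cyclin Ccnd2 at -0.45 (SE 0.051), and 3 fell without library 2 or 3 of 90 min or library 2 of 180 min. Genes of S to M phase rose in 3 of 32 cases (median 0.07), Mcm2, a subunit of the replication helicase (0.37, SE 0.098), the proliferation marker Mki67 (0.49, SE 0.13, lost without library 2 of 180 min, highest adjusted p = 0.0645) and the mitotic kinase Aurka (0.63, SE 0.22, lost in 9 of 18 alternatives, highest adjusted p = 0.182), and 1 rose without library 2 of 180 min. Cytosolic ribosomal protein genes rose in 2 of 48, Rpl10a (0.25, SE 0.075, lost without library 2 of 90 min or without library 1 or 2 of 180 min, highest adjusted p = 0.0662) and Rpl5 (0.18, SE 0.062, lost in 5 of 18 alternatives, highest adjusted p = 0.153), with 0 without library 2 of 180 min and 4 without library 3 of 180 min (median 0.03), and mitochondrial ribosomal protein genes in 1 of 32, Mrps2 (median 0.06).

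Mitochondrially encoded genes rose in 8 of 9 tested, of 15 listed, and all 9 fold changes were positive, with a median of 0.38. Among all genes 4.45% rose and 6.97% fell. mt-Cytb, a subunit of respiratory complex III, was at 152, 189.8, 162 and 191 CPM at 90 min and 193, 283, 237 and 239.6 CPM at 180 min (log2 fold change 0.45, SE 0.07, adjusted p = 1.32e-06), with the lowest late library just above the highest earlier one. mt-Nd1, of complex I, rose by 0.41 (SE 0.066), and mt-Co1, of complex IV, by 0.39 (SE 0.058) with overlapping groups. mt-Nd5, also of complex I, rose by 0.41 (SE 0.069). Mitochondrial genes took 5.88 ± 0.546% of counts at 90 min and 7.0 ± 0.611% at 180 min (SD, n = 4 each; two-sided exact permutation p = 0.0286, the smallest this design allows, and adjusted p = 0.0857 over 3 shares tested). Of 42 nuclear-encoded subunits of the respiratory chain 0 rose by edgeR or DESeq2 (1 was higher at an unadjusted p under 0.05) and 2 fell, Ndufa2 of complex I (-0.32, SE 0.086) and the electron carrier Cycs (-0.26, SE 0.083, lost in 8 of 18 alternatives, highest adjusted p = 0.138), with a median of -0.005. The other shares tested were those of ribosomal protein genes (0.882% and 0.925%, permutation p = 0.257) and of intronic noncoding genes (0.212% and 0.226%, permutation p = 0.514).

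Histone genes fell in 10 of 32 cases and rose in 2, with a median of -0.31, where 6.97% of all genes fell and 4.45% rose. Hist1h1d, a linker histone of the replication clusters, fell by 0.81 (SE 0.18), Hist2h2be by 0.65 (SE 0.13) and Hist2h3c2 by 1.19 (SE 0.27). H3f3b, a variant histone made outside S phase, fell by 0.23 (SE 0.04), while the linker histone Hist1h1c rose by 0.25 (SE 0.063) and the variant H3f3a was the other rise (0.20, SE 0.062, lost without library 1 of 90 min or without library 1 or 2 of 180 min, highest adjusted p = 0.114). Of 24 genes of the integrated stress response 8 fell and 2 rose (median -0.14). The pseudokinase Trib3 fell by 0.47 (SE 0.067), the stress sensor Sesn2 by 0.58 (SE 0.083), the cysteinyl-tRNA synthetase Cars by 0.29 (SE 0.058) and the phosphatase subunit Ppp1r15b by 0.26 (SE 0.045). The rises were Cebpb and Ddit4, an inhibitor of mTORC1 (1.74, SE 0.41, at 0.529 ± 0.234 and 1.75 ± 0.532 CPM). The count of falls was 5 with only the 8 libraries of 90 and 180 min fitted, and 5 without library 2 of 90 min. Of 21 genes of the unfolded protein response 5 fell and 1 rose (median -0.06), with the degradation factor Herpud1 at -0.65 (SE 0.11) and the sensor Atf6 at -0.25 (SE 0.046). The chaperone Hspa5 (-0.16, SE 0.042, lost without library 3 of 180 min, highest adjusted p = 0.0675) and the degradation adaptor Sel1l (-0.14, SE 0.046, lost in 12 of 18 alternatives, highest adjusted p = 0.239) were further falls, and the disulphide isomerase Pdia4 was the rise (0.23, SE 0.06). The falls numbered 3 in 11 of the 18 alternatives, among them the loss of any 1 library other than library 4 of 180 min. Heat shock and chaperonin genes changed in 2 of 31 cases (median 0.01), the fall of Hspa5 and the co-chaperone Bag3, which rose by 0.29 (SE 0.071).

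Survival and death genes of the BCL2 family and its partners rose in 3 and fell in 4 of 22 cases (median -0.02). For this and the other lists of the paragraph, the shares over all genes were 4.45% higher and 6.97% lower. The killers Pmaip1 and Bcl2l11 fell by 0.47 (SE 0.093) and 0.23 (SE 0.046) and the caspase Casp8 by 0.22 (SE 0.047). The inhibitor of apoptosis Birc2 was the other fall (-0.28, SE 0.081, lost without library 3 of 90 min or without library 2 or 4 of 180 min, highest adjusted p = 0.126). The rises were the survival genes Bcl2 (0.33, SE 0.1, lost without library 1 of 90 min, without library 2 or 3 of 180 min or after thinning, highest adjusted p = 0.0853) and Bcl2a1d (0.38, SE 0.12, lost without library 3 of 90 min or without library 2 or 4 of 180 min, highest adjusted p = 0.134), the latter 1 of several near-identical copies that can share reads, and the killer Bmf (0.70, SE 0.18, lost without library 3 of 90 min, highest adjusted p = 0.0591). Without library 2 of 180 min or library 3 of 90 min 1 gene of the list rose. Of 18 p53 targets 1 rose, the stress gene Gadd45a (0.44, SE 0.093), and 2 fell, Plk2 and Sesn2 (median 0.001). These counts are near the shares over all genes, 4.45% and 6.97%, and are not a result about the list. Regulators of mRNA decay rose in 5 and fell in 4 of 26 (median -0.01). The destabilising proteins Zfp36l1 and Zfp36l2 rose by 0.33 (SE 0.072) and 0.20 (SE 0.044), and the decapping enzyme Dcp2 and the exonuclease Xrn1 fell by 0.52 (SE 0.056) and 0.29 (SE 0.056). The deadenylation genes Pan3 (-0.20, SE 0.049) and Cnot1 (-0.14, SE 0.047, lost in 13 of 18 alternatives, highest adjusted p = 0.253) were the other falls, and the antiproliferative Tob2 rose (0.25, SE 0.064). Factors of polymerase II pausing and elongation, the subject of the series title, rose in 2 and fell in 1 of 39 cases (median -0.01), against 4.45% and 6.97% of all genes. Brd2, a reader of acetylated histones, rose by 0.14 (SE 0.038), the elongation scaffold Aff1 was the other rise (0.13, SE 0.044, lost without library 1 of 90 min, without library 3 or 4 of 180 min or in a fit of 8 libraries, highest adjusted p = 0.161), and Polr2a, the largest subunit of the polymerase, fell by 0.20 (SE 0.049). SR splicing factors and CLK kinases rose in 4 and fell in 2 of 31 (median 0.01), with the kinase Srpk2 lower (-0.27, SE 0.068). The other fall was Luc7l3 (-0.18, SE 0.061, lost in 11 of 18 alternatives, highest adjusted p = 0.177), and the rises were Srsf2 (0.20, SE 0.055, lost without library 3 of 180 min, highest adjusted p = 0.0559), Srsf7 (0.21, SE 0.068, lost without library 3 of 90 min, without library 1 or 3 of 180 min or after thinning, highest adjusted p = 0.124), Srrm1 (0.14, SE 0.047, lost without library 1 of 90 min, without library 4 of 180 min, in a fit of 8 libraries or after thinning, highest adjusted p = 0.123) and Srsf6 (0.15, SE 0.052, lost in 7 of 18 alternatives, highest adjusted p = 0.119). The rises numbered 2 without library 3 of 90 min or library 4 of 180 min and 1 without library 3 of 180 min.

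**Figure D3:**
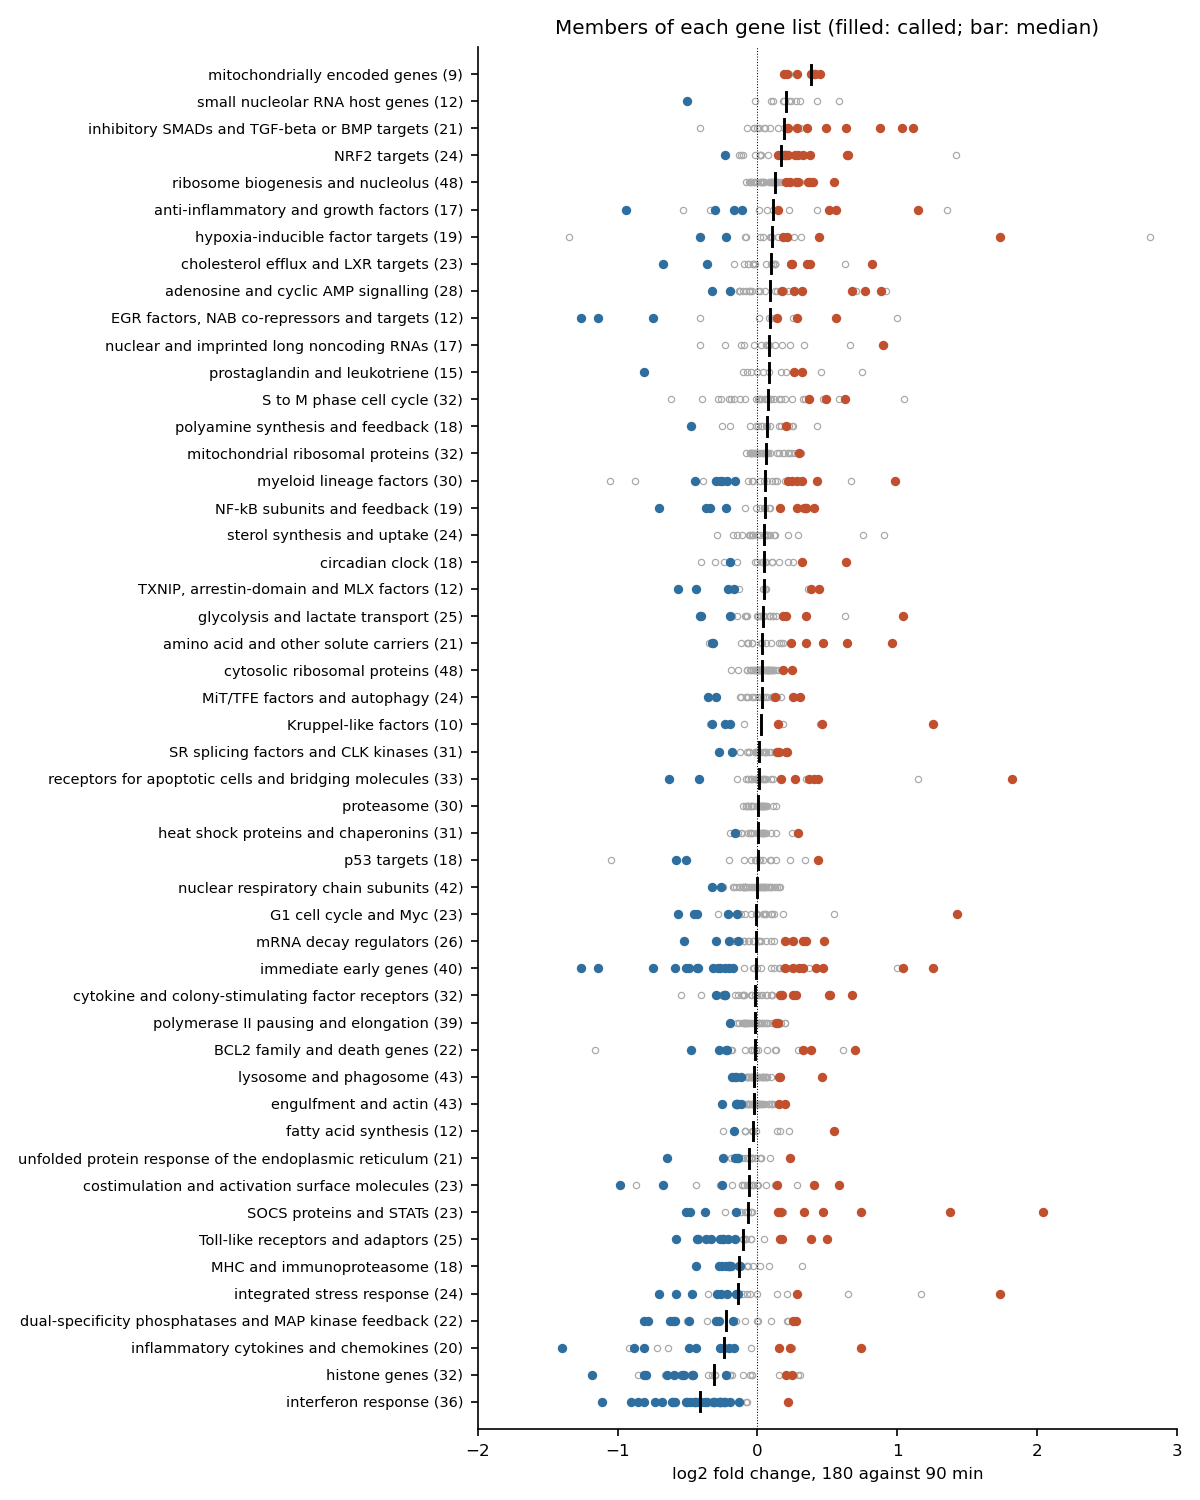
Log2 fold change of 180 against 90 min (horizontal axis) of the tested members of 50 gene lists (rows, with the number tested in parentheses), ordered by median. Filled points are called genes, orange higher and blue lower, open points are genes not called, and the black bar is the median. Interferon response genes lie lowest, with a median of -0.41, and mitochondrially encoded genes highest, at 0.38.

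On the whole course the interferon list had medians of 0.09, -0.05 and -0.42 against macrophages alone at 45, 90 and 180 min. The inflammatory list went from 0.44 through 0.28 to 0.03, and the TGF-beta list from 0.09 through 0.23 to 0.35. NRF2 targets stood at 0.09, -0.14 and -0.003, ribosome biogenesis at 0.01, -0.02 and 0.11, and mitochondrially encoded genes at -0.31, 0.51 and 0.92. Cmpk2 stood at 0.17, -0.10 and -1.0, Cxcl10 at -0.01, -0.13 and -1.53, and Egr1 at 2.27, 0.87 and -0.39. The contrasts share the libraries of macrophages alone and are set side by side as values only.

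**Figure D4:**
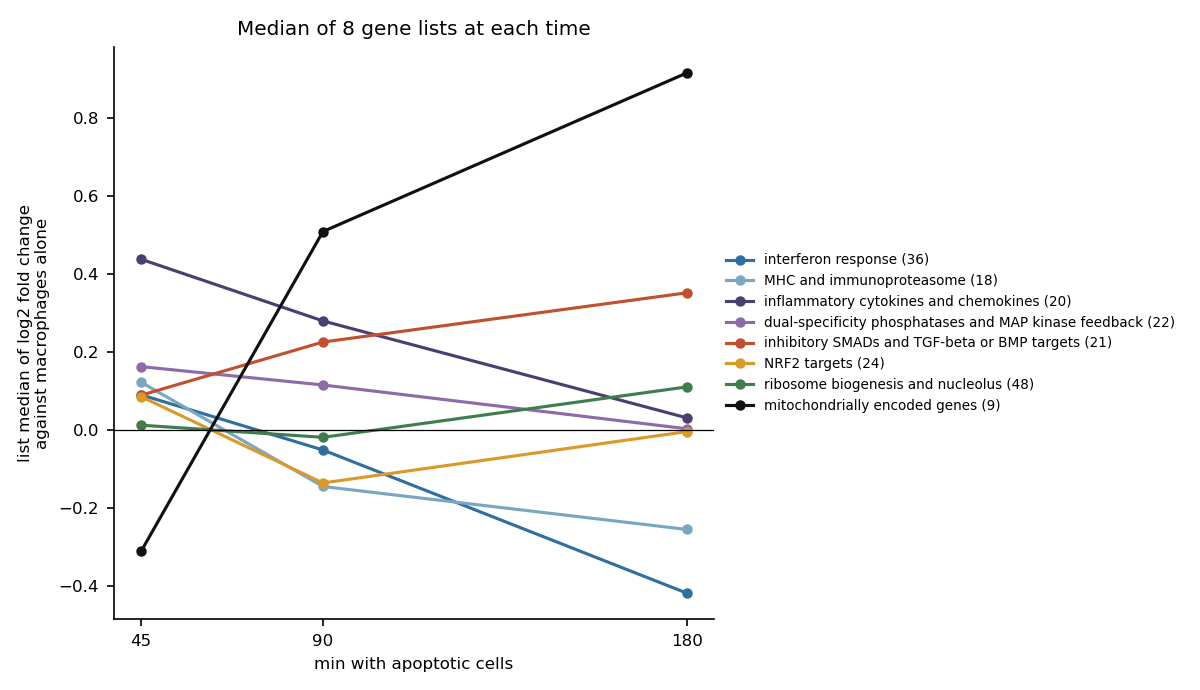
Median log2 fold change against macrophages alone (vertical axis) of 8 gene lists at 45, 90 and 180 min with apoptotic cells (horizontal axis), with the number of genes tested in parentheses. Lines join the medians of a list. The interferon list drops to -0.42 at 180 min, while the TGF-beta list climbs to 0.35 and the mitochondrially encoded genes to 0.92.

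Of noncoding genes 3.93% were called and of coding genes 13.2%. The part of abundance in this difference was not tested. Mir17hg, the host transcript of a microRNA cluster, rose from 6.14 ± 1.05 to 11.5 ± 2.54 CPM (0.90, SE 0.18). Phtf1os (0.89, SE 0.28, lost without library 2 or 4 of 90 min or without library 3 of 180 min, highest adjusted p = 0.127) and Ptpmt1, which the annotation does not class as coding (0.30, SE 0.092, lost without library 4 of 90 min, highest adjusted p = 0.0628), rose as well. Mir221, a microRNA gene, was at 6.94, 3.03, 2.55 and 4.59 CPM at 90 min and 1.09, 2.48, 1.53 and 1.18 CPM at 180 min, without overlap (log2 fold change -1.48, SE 0.34, adjusted p = 0.00136). The counts are of reads over its locus in total RNA and not of the mature forms, which RefSeq gives as follows (GRCm38.p6, minus strand, chrX:19146307-19146329 for the 3p form and chrX:19146344-19146369 for the 5p form), with the seed, bases 2 to 8, in capitals. They are shown because this was the microRNA gene that fell, 1 of 40 tested.
mmu-miR-221-3p: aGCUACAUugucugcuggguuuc
mmu-miR-221-5p: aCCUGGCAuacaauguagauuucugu
Ifi203-ps, a pseudogene of the interferon-inducible p200 family, fell by 0.98 (SE 0.096) and H2-T-ps, a pseudogene of the MHC class I family, by 0.80 (SE 0.2), and both may share reads with their coding relatives. Zfas1, a host gene of small nucleolar RNAs, fell by 0.50 (SE 0.084) as the 1 called by edgeR of 12 such host genes (median 0.21), of which 4 were higher at an unadjusted p under 0.05 and 0 by DESeq2. Of 17 nuclear and imprinted long noncoding RNAs 1, Mir17hg, rose (median 0.08). The strand setting of the counting is not given, so reads of antisense or overlapping genes cannot be told apart.

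The late calls were also set beside the first step of the course, 45 min against macrophages alone, which shares no library with them. Of 664 genes higher at 45 min 117 fell between 90 and 180 min (17.6%, and 11.9% of the 987 late falls) and 62 rose (9.34%, and 9.83% of the late rises). Of 865 genes lower at 45 min 133 fell late (15.4%, and 13.5% of the late falls) and 51 rose (5.9%, and 8.08%). Over all genes 6.97% fell late and 4.45% rose, and 4.69% were higher and 6.11% lower at 45 min. Called coding genes were more abundant, with a median average level of 6.70 log2 CPM for falls and 5.45 for rises against 4.49 for genes not called, and the part of abundance in the overlap was not tested. Egr1, Egr3 and Ccl4 were among the genes that were higher early (2.27, 4.39 and 0.72) and fell late.

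Coding genes that fell had a median GC content of 46.8% and those that rose 52.5%, against 49.6% for genes not called. Median exon lengths were 5619, 5244 and 4363 bases. With a smooth trend of counts on these properties taken out of each library, 832 genes were higher and 960 lower, and the part of base composition in single genes was not tested.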

How the data were processed

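Raw, whole-number counts for each gene in 16 libraries were deposited by the authors as 1 table, with no normalization. Per the labels' protocols, ribosomal RNA was removed from total RNA and a directional kit was used for the libraries, and per the submitters' processing notes the tools were STAR 2.7.9a, SAMtools and HTSeq with build mm39. For the strand setting, ambiguous reads and human reads, the sources used here give nothing. Column headers name the group and no replicate number, so libraries are numbered 1 to 4 by place in the table.

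Of 55416 genes listed, a count was found for 25663, and 14168 passed edgeR's expression filter (minimum count 10, minimum total 15). Library sizes carried edgeR's TMM factors (trimmed mean of M values), and all 16 libraries were fitted with group as the sole term in edgeR 4.0.16 (R 4.3.3), with 12 residual degrees of freedom. The contrast of 180 and 90 min was tested with the quasi-likelihood F test and Benjamini-Hochberg adjustment. The fit was tested on simulated data with known fold changes. Log2 fold changes are unshrunk coefficients, and the SE is the coefficient's size over the square root of F. Shares of counts were compared by an exact permutation test (scipy 1.17.1). Symbols, classes, lengths and GC content came from GENCODE M21, an annotation of the build before mm39, and promoters and microRNAs from RefSeq on GRCm38.p6, by symbol. Totals of 10.7 to 23.4 M counts in the 8 libraries compared limit the precision of genes of low level.

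The comparison, the 57 gene lists and the rules were chosen with earlier results of these data known. Named were the 15 largest rises and falls among called coding genes with an average of at least 1 log2 CPM and no overlap, up to 4 of each kind among other classes, up to 4 called members of a list in each direction by smallest p (up to 2 where none was called), and 20 genes set by hand, of which 6 rose, 7 fell and 7 were not called. Tgif1, Tgfbr1, Irf7, Irf9, Rsad2, Isg15, Usp18, Dusp10, Map3k8, Spred1 and Rtp4 were chosen after their values were seen. Genes that the rule names are reported except for 2 list members, which are counted but not reported here. Alternatives covered scaling, filters, the libraries fitted, each library left out, coding genes alone, thinning, length and GC content, mitochondrial genes and DESeq2 1.42.0.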

Additional observations from a re-analysis of the deposited data

Results flagged for a closer look

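In 35 of 546 groups of 4 libraries, mostly levels of the 269 genes reported, 1 library lay far from the other 3. Chance alone marks about 1 in 20 such groups. Library 1 of 180 min, which lay next to the 90 min libraries on the first principal component, was the one apart in 9 of these cases, and library 2 of 180 min, with the lowest total of counts, in 6. Library 1 of 90 min was apart as the highest for Cish (29.6 CPM), Ier3 (46.7 CPM), Nod1 (70.2 CPM) and Rnd3 (16.8 CPM) and as the lowest for Aurka (2.19 CPM), Ccl3 (81.9 CPM) and Nlrp3 (178 CPM). Library 2 of 90 min was apart as the highest for Fnip2 (1430 CPM) and Slc16a6 (83.3 CPM) and as the lowest for Lamp2 (1080 CPM) and Tlr8 (240 CPM). Library 3 of 90 min was apart as the highest for Il1rn (1350 CPM) and as the lowest for Nlrc5 (319 CPM). Library 4 of 90 min was apart as the lowest for Axl (21.6 CPM) and Il17ra (66.8 CPM). Library 1 of 180 min was apart as the highest for Actg1 (275 CPM), Efnb1 (4.84 CPM), Irf8 (173 CPM), Isg15 (306 CPM), Mx1 (233 CPM) and Ptgs2 (22 CPM) and as the lowest for Bcl6 (63.5 CPM), Cables1 (4.7 CPM) and Dcp2 (97.2 CPM). Library 2 of 180 min was apart as the highest for Il10 (2.48 CPM), Lrrfip1 (229 CPM) and Mir17hg (15.3 CPM) and as the lowest for Mxd1 (116 CPM), Tap2 (155 CPM) and Tapbp (647 CPM). Library 3 of 180 min was apart as the lowest for Actr3 (849 CPM) and Rtp4 (209 CPM). Library 4 of 180 min was apart as the highest for Igf1 (890 CPM) and as the lowest for Nlrp3 (129 CPM) and Tfeb (23.8 CPM).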

How the results depend on the processing

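Over 18 alternatives the counts ran from 550 to 840 genes higher and from 750 to 967 lower, no call changed sign, and 79.5% to 97.3% of the 1618 calls were kept. Fitting coding genes alone gave 29 genes at least 2-fold lower, and of the 51 in the main fit 27 were coding. With the length and GC trend removed 38 noncoding genes were higher in place of 24, and 13 ribosome biogenesis genes in place of 8. Without a scaling factor that list had 14. Integrated stress response falls numbered 5 with only the 8 libraries fitted and 5 to 8 with a library left out, against 8. The cause of these shifts was not tested. The median of the immediate early list, -0.0123, turned to 0.0179 without a scaling factor and lay between -0.0203 and 0.0313 with a library left out. The other 12 list medians for which alternatives were run kept their sign, that of the interferon list between -0.412 and -0.372, and 31 to 33 of its members fell with a library left out. The difference in the mitochondrial share, 180 minus 90 min, was 1.12 percentage points (adjusted permutation p = 0.0857). It was 0.859 to 1.3 with a library left out, where the smallest permutation p that 3 against 4 can give is 0.0571. Of the 246 genes named by the rule and called, 61 lost the call in at least 1 alternative, 30 of these solely where a library was left out and 6 in more than 9 alternatives. Over all genes reported, 4541 values under alternatives stayed on their side of the threshold, 274 lost the call and 12, of Odc1 and Psmd3, gained one. Of 26 list counts of 5 or more, 21 stayed within 1.5 times their value in every alternative, and the 5 that did not were the falls in G1 cell cycle (3 to 5), engulfment (3 to 7), stress response (5 to 9) and unfolded protein (3 to 5) genes and the rises in ribosome biogenesis (6 to 14). Counts under 5 moved by more than this in further lists. No paired analysis was possible because the table's columns carry no replicate number. Calls were ended by 1 library or another setting both at levels under 6 CPM at both times (7 of the 61) and at levels over 100 CPM at both times (23). The part of library depth in these losses was not tested.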
